A study of Mus musculus with 2 samples.

Results

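Prostaglandin synthesis was followed through 6 genes, chosen by name: Pla2g4a, Ptgs1, Ptgs2, Ptges, Ptges2 and Ptges3. All 6 were represented on the array by coding accessions, and all 6 were above the detection filter among 10033 coding mRNAs that passed it, out of 18743. Together they had 9 probes and 18 spots, none of them flagged as an outlier, and each of these spots was well above background in both channels of both arrays. The cells were NIH3T3, a mouse fibroblast line, kept in 10% serum (4 plates each) and either left untreated (control) or exposed to 10 µM thapsigargin for 3 h. Thapsigargin blocks the calcium pump of the endoplasmic reticulum, and all cells were given cycloheximide shortly before lysis to hold ribosomes in place. Lysates were run on a 10 to 40% sucrose gradient, and RNA bound to polysomes (P) was compared on a two-colour array with pooled free and monosome RNA (FM). P carried the dye Cy3 and FM the dye Cy5, without a dye swap. Each condition had 1 array, made from RNA of 3 preparations, so the differences between conditions are described without p-values.

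Prostaglandin E2 is made in a short chain of steps. Cytosolic phospholipase A2, the product of Pla2g4a, frees arachidonic acid from membranes when calcium rises. The cyclooxygenases turn it into prostaglandin H2, Ptgs1 (COX-1) as the constitutive form and Ptgs2 (COX-2) as the form that stress, growth factors and inflammation induce. Prostaglandin E synthases complete the path, namely Ptges (microsomal, commonly induced along with COX-2), Ptges2 (membrane-associated) and Ptges3, which is also known as p23 and serves as a co-chaperone of Hsp90.

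Promoter sequences are shown for the cyclooxygenases and for Ptges, because A, the mean log2 signal, differed between the arrays by more for Ptgs2 and Ptges than for Ptgs1. They are the 250 bases before the RefSeq start site (GRCm38.p6), 5′ to 3′ on the coding strand, with motif matches in capitals. The promoters of Pla2g4a are not printed, though its A differed by 1.12, against 1.04 for Ptges and 0.60 for Ptgs1. Positions refer to the RefSeq start sites, which were not compared with experimentally mapped starts. Whether the motifs relate to A was not tested.
Ptgs2, chr1:150099781-150100030, plus strand: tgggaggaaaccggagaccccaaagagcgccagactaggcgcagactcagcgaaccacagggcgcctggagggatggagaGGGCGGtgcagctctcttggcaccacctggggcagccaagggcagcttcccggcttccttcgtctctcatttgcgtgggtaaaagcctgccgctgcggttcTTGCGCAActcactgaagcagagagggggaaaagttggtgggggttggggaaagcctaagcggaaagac
Ptgs2, chr1:150100034-150100063, plus strand, just after the start site: gtcaccactaCGTCACGTGgagtccgcttt
Ptges, chr2:30903298-30903547, minus strand: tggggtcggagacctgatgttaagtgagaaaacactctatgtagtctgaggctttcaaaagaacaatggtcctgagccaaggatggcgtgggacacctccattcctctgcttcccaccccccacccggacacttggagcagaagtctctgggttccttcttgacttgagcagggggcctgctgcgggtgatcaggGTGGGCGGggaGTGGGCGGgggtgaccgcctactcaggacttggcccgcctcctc
Ptgs1, chr2:36230176-36230425, plus strand: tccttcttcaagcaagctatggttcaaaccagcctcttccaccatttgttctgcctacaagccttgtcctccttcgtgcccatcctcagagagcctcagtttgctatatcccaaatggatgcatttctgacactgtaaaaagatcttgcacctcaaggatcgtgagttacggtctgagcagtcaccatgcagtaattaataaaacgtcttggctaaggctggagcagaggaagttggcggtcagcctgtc

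The search covered both strands from 250 bases before to 50 bases after each start site, for the letters TTGCGCAA (the C/EBP palindrome), TGACG (the core of a cyclic AMP response element), CACGTG (an E-box), TATAAA (known as the TATA box), GGGCGG (a GC box), GTGGGCG (an Egr core), TGACTCA (an AP-1 site) and TGATGCAA (a C/EBP-ATF composite). Ptgs2 held TTGCGCAA, which occurred in 0.183% of 32851 RefSeq promoter windows of that length. It also held GGGCGG, found in 35.7% of windows. The element core and the E-box of Ptgs2 overlapped by 2 bases, in the printed run after the start site, and TGACG and CACGTG were found in 20.8% and 7.15% of windows. Ptges held 2 matches to GTGGGCG, each overlapping a GGGCGG match, and 7.97% of windows held GTGGGCG. Ptgs1 held none of the 8 motifs in its window. Ptges2 held 1 E-box and Ptges3 several GC boxes and 1 element core, and the only match in the windows of 2 Pla2g4a start sites was 1 TATAAA on the opposite strand, at the downstream start site. A match describes letters and not binding, and none of the arrays measured binding.

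Translation efficiency is expressed here by log2 P/FM, in which the P signal of a probe is divided by its FM signal. Relative abundance is expressed by A, in which the log2 signals of the channels are averaged. A change is the thapsigargin array minus the control array, and 1 on this scale is a factor of 2. The ratio on an array can carry a dye bias, which the change removes only as far as it was the same on both arrays. Over all 10033 mRNAs the median log2 P/FM was 0.34 on the control array and -0.29 on the thapsigargin array, and the changes had a median of -0.71 in log2 P/FM and of 0.37 in A. The median SD of the change in log2 P/FM was 0.10 between spots of the same probe (94 probes) and 0.32 between probes of the same mRNA (3438 mRNAs). The latter was used as the nearest available error. It covers neither the spread between cultures nor that between labellings.

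Known targets of the treatment differed between the arrays too. Of 6 mRNAs known to respond to stress of the endoplasmic reticulum, 5 had A higher by 1 or more, against 11.7% of all mRNAs. In log2 P/FM, 4 were higher by 1 or more, against 9.9%. Ddit3, a transcription factor gene of this response, differed by 3.71 in A and by 2.58 in log2 P/FM, and Hspa5, the gene of the chaperone BiP, by 1.96 and 1.36. Atf4 differed by 0.79 in A and by 3.42 in log2 P/FM, and Ppp1r15a by 2.55 and 2.45. Herpud1 differed by 4.19 in A and Trib3 by 3.48, while their differences in log2 P/FM (-0.01 and -0.25) varied in sign with the processing, with 1.70 and 0.70 after loess. All 9 fibroblast markers examined were detected on both arrays by at least 1 probe, though Col3a1 and Pdgfra not with every signal well above background, and of 9 markers of other cell types only Cd68 was detected.

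Ptgs2 had a log2 P/FM higher by 3.64, Pla2g4a and Ptgs1 were higher by 0.46 and 0.42, and the 3 prostaglandin E synthases were lower by between 1.75 and 2.15, except that all 6 were higher after spike-in scaling. Thus 3 of 6 members were lower by 1 or more, against 40.8% of all mRNAs, and 1 of 6 was higher by 1 or more, against 9.9%. With groups of this size the shares themselves are near the background, and the description rests on the individual values. In A, 3 members (Ptgs2, Pla2g4a and Ptges) were higher by 1 or more, against 11.7% of all mRNAs, and none was lower by that much. With A centred on each array's median, only Ptgs2 remained above 1 (1.76), with Pla2g4a at 0.72 and Ptges at 0.64.

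**Figure D1:**
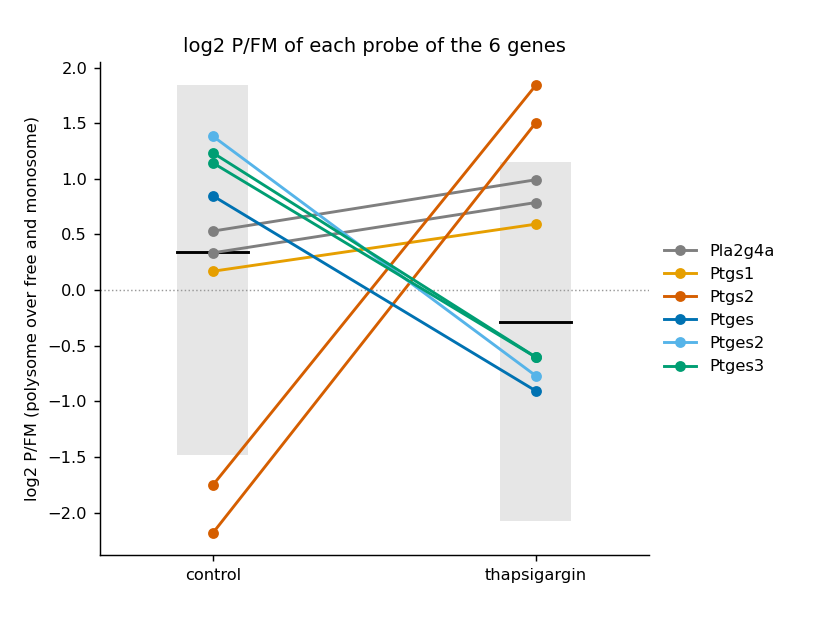
log2 P/FM (y axis) of each of the 9 probes on the control and the thapsigargin array, with a line joining the same probe and a colour for each gene. Grey bars span the 5th to 95th percentile of all 10033 coding mRNAs (-1.48 to 1.84 and -2.08 to 1.15) and black lines mark the medians of 0.34 and -0.29. The Ptgs2 lines run from below the control bar to above the thapsigargin bar, while the lines of Ptges, Ptges2 and Ptges3 run downwards together, a direction that turned after spike-in scaling.

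Pla2g4a, the first step, was read by a pair of probes. The probe at chr1:151677294-151687778 (mm9, minus strand) spans 10485 bases of genome with 60 bases of sequence, so it crosses a splice junction and reads spliced mRNA. It is shown whole because it sets this measurement apart from unspliced RNA.
Pla2g4a junction probe: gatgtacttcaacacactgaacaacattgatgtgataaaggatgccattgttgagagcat
Its P signal (background-subtracted, scanner units) was 175 on the control array and 440 on the thapsigargin array, and its FM signal was 121 and 221. The other probe, at chr1:151677133-151677192, gave P signals of 426 and 1094 and FM signals of 338 and 634. Both probes were thus brighter with thapsigargin in both fractions before any scaling. The P signal was 2.54-fold and the FM signal 1.85-fold that of the control. log2 P/FM of the gene went from 0.43 on the control array to 0.89 on the thapsigargin array, and the probes differed from one another by less than the usual spread (change 0.46 ± 0.01, SD over 2 probes). The change lay 1.17 above the median of all mRNAs, and A was higher by 1.12 against a median of 0.37. Among 1504 mRNAs within 0.5 of its mean A, the median change in log2 P/FM was -0.81 and the 95th percentile 1.33, so Pla2g4a lay on the high side of the middle.

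Ptgs1 was read by 1 probe, at chr2:36105892-36105951 (mm9, plus strand). Its P signal was 5082 in control and 8909 in thapsigargin, and its FM signal was 4518 and 5907. Before any scaling both fractions were brighter, P by 1.75-fold and FM by 1.31-fold. On the log2 scale the P difference of 0.81 was above the median of all mRNAs (0.02). The FM difference of 0.39 was below it (0.72). log2 P/FM went from 0.17 to 0.59. The difference of 0.42 is little more than the 0.32 spread between probes, but mRNAs of similar brightness were mostly much lower with thapsigargin. Of the 234 within 0.5 of its mean A, the median change was -1.73 and the 95th percentile 0.50. When ratios were adjusted for brightness by loess, the change of Ptgs1 became 2.08. A was higher by 0.60, or 0.23 above the median of all mRNAs.

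Ptgs2 stood furthest from the other members. The probe at chr1:151954744-151954803 (mm9, plus strand) was printed as 10 spots, whose P signals ran from 104 to 164 on the control array and from 1648 to 2864 on the thapsigargin array. These ranges do not overlap. The FM signals of those spots ran from 504 to 677 and from 609 to 908, which do overlap. log2 P/FM of the 10 spots lay between -2.28 and -1.96 in control and between 1.44 and 1.67 in thapsigargin, a change of 3.69 ± 0.04 (SD over 10 spots of the same probe). The second probe, at chr1:151954416-151954475, gave P signals of 62.6 and 962 and FM signals of 211 and 268. Its log2 P/FM went from -1.75 to 1.84. The difference between the arrays was therefore nearly the same by both probes (3.64 ± 0.07, SD over 2 probes). Its 60 bases hold a stop codon in each forward frame, so it does not lie wholly within the coding sequence. The 10-spot probe contains the AU-rich pentamer ATTTA, a letter run of unstable mRNAs that is found in 7.58% of the probes for coding accessions, shown here with its neighbouring bases.
Ptgs2 10-spot probe, 30 bases: ttaggctgttggaATTTAcgcataaagcag

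In the unscaled signals the difference of Ptgs2 lay almost wholly in the polysome channel. P was 15.7-fold and FM 1.26-fold that of the control, and the FM difference (0.34 on the log2 scale) was below the median of all mRNAs (0.72). In control cells only 2.33% of mRNAs had a lower log2 P/FM than Ptgs2 (-1.97). With thapsigargin, 99.0% had a lower one than its 1.67. Its change ranked 4 from the top among 10033 mRNAs in log2 P/FM and 51 in A (2.16). In a bulk culture, more cells with the mRNA and more of it per cell cannot be told apart. By the study's classes Ptgs2 was inducible (at or below 0 in control, then higher by 1 or more), a class that held 8.86% of mRNAs. Of the mRNAs with A higher by 1 or more, 22.4% also had a log2 P/FM higher by 1 or more, as Ptgs2 did.

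**Figure D2:**
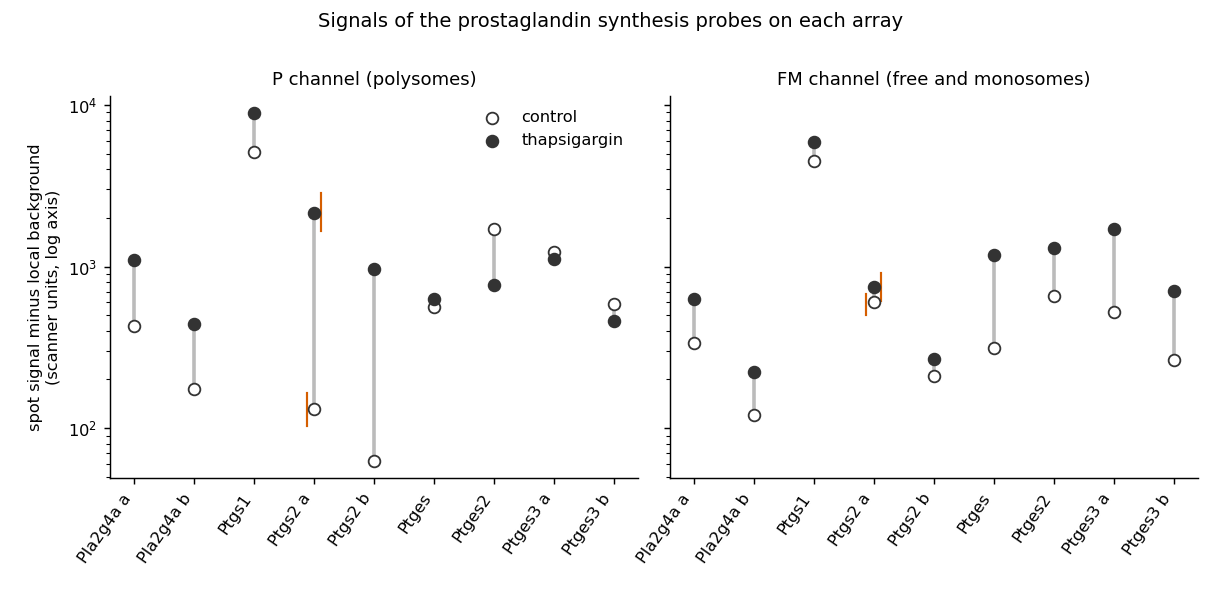
Background-subtracted signals without scaling (y axis, log scale) of the 9 probes in the P channel (left) and the FM channel (right). Open circles are control and filled circles thapsigargin. Orange bars give the lowest and highest of the 10 spots of the first Ptgs2 probe. The Ptgs2 circles are far apart only in the P channel, and those of Ptges and Ptges3 mainly in the FM channel.

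The microsomal synthase Ptges, usually induced with COX-2, had a higher A with thapsigargin, as Ptgs2 did. Without spike-in scaling, its log2 P/FM differed in the other direction. Its probe, at chr2:30747838-30747897 (mm9, minus strand), gave P signals of 561 in control and 629 in thapsigargin. The FM signals were 312 and 1178. Without scaling, nearly all the added signal was in the free and monosome channel, where thapsigargin gave 3.77-fold the control value against 1.12-fold in P. The FM difference of 1.92 (log2) was higher than that of 96.8% of mRNAs. log2 P/FM went from 0.85 to -0.91, lower by 1.75, although it was higher by 0.59 after scaling to the spike-in probes. A was higher by 1.04. Ptges thus combined a higher A with a lower log2 P/FM, which held for 16.2% of the 1169 mRNAs with A higher by 1 or more.

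Ptges2 was the member with the lowest change. Its probe, at chr2:32257968-32258027 (mm9, plus strand), gave P signals of 1717 and 766 and FM signals of 658 and 1306. P was 0.446-fold and FM 1.98-fold the control, so the unscaled channels differed in opposite directions. log2 P/FM went from 1.38 to -0.77, lower by 2.15 (0.19 higher after spike-in scaling). In control cells 86.8% of mRNAs had a lower log2 P/FM, and with thapsigargin 31.3% did. A differed by -0.09, a size below the 0.18 spread between probes.

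Ptges3 was read by a pair of probes on chromosome 10. The one at chr10:127513697-127513756 (mm9, plus strand) gave P signals of 1224 and 1120 and FM signals of 520 and 1700. The one at chr10:127513155-127513214 gave P signals of 582 and 463 and FM signals of 264 and 704. Without scaling, P thus stayed within 0.795 to 0.915 of the control value while FM was 2.67 to 3.27 times as bright. log2 P/FM went from 1.19 ± 0.06 to -0.60, a change of -1.79 ± 0.06 (SD over 2 probes), or 0.55 after spike-in scaling. A was higher by 0.67. A pseudogene of this gene, Ptges3-ps, is annotated, and signal from near-identical copies could not be told apart from that of Ptges3.

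The 3 synthases thus began in the upper part of the control range and ended below the thapsigargin median, by 0.31 to 0.62. All 3 were in the sensitive class (change of -0.8 or lower), which held 47% of mRNAs, and their changes lay below the median and above the 5th percentile of mRNAs of similar brightness. That median was -1.03 for Ptges, -1.24 for Ptges2 and -1.09 for Ptges3, and the 5th percentiles were -2.60, -2.82 and -2.64. None of the 6 members was in the resistant class (0.8 or more on both arrays), which held 3% of mRNAs. Pla2g4a came nearest, with 0.43 in control.

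The order of the 6 genes turned over between the arrays. In control it ran Ptges2, Ptges3, Ptges, Pla2g4a, Ptgs1, Ptgs2, and the neighbours Ptges2 and Ptges3 and the neighbours Pla2g4a and Ptgs1 were closer than the median SD between probes (0.29). With thapsigargin it ran Ptgs2, Pla2g4a, Ptgs1, Ptges3, Ptges2, Ptges, and the synthases were each within 0.17 of the next, under the SD of 0.28. These orders compare ratios of different probes, in which dye and probe effects remain. The change of Ptgs2 exceeded that of Ptgs1 by 3.22, with a range of 2.10 to 3.25 over 11 other ways of processing (for Ptgs1 minus Ptgs2, -3.22, -3.25 and -2.10). It exceeded that of Ptges by 5.39, with a range of 3.96 to 5.43. The changes of Ptges and Ptges3 differed by 0.04, less than the spread between probes.

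**Figure D3:**
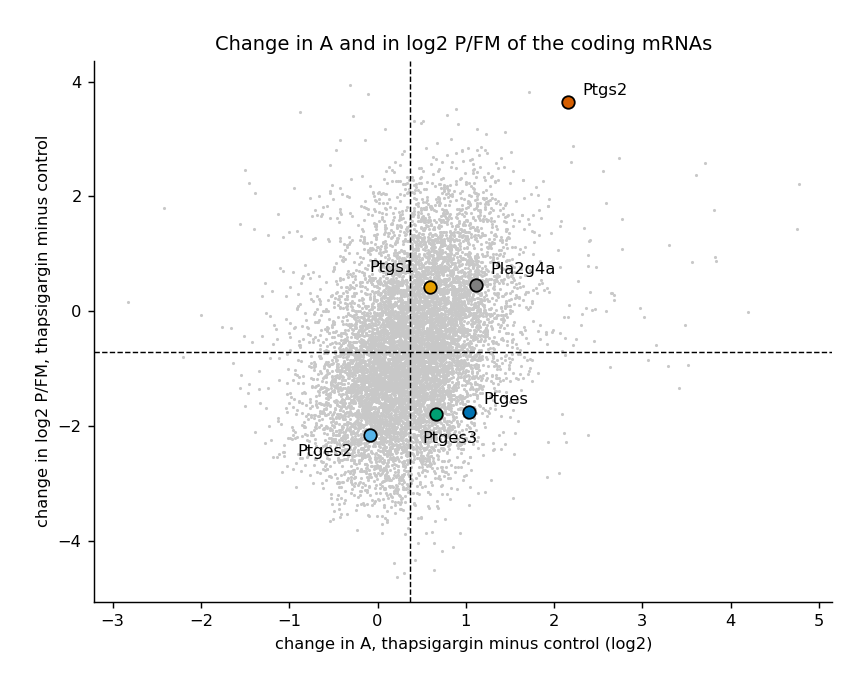
Change in log2 P/FM (y axis) against change in A (x axis, log2), thapsigargin minus control, for 10033 coding mRNAs (grey) and the 6 genes (coloured), with dashed lines at the medians of -0.71 and 0.37. Ptgs2 lies at the upper right edge, Pla2g4a and Ptgs1 above the horizontal line, and the 3 synthases below it, with Ptges to the right of the vertical line and Ptges2 to the left.

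These values depend on scaling. P and FM RNA were labelled in the proportions found in each condition, so by design the unscaled ratio carries a shift of RNA between fractions. How much of that shift each scaling removes was not tested. Signals given for single channels are unscaled, and spike-in scaling shifts P and FM by different amounts. The 10 labelled spike-in probes differed by -2.44 (median) in log2 P/FM between the arrays, and scaling to them gave Ptgs2 5.98, Pla2g4a 2.80, Ptgs1 2.77, and small positive values for the synthases. Loess within each array left only Ptges2 lower by 1 or more (-1.11), with Ptges at -0.95 and Ptges3 at -0.91, and put Ptgs2, Ptgs1 and Pla2g4a (1.01) all higher by 1 or more. Subtracting the median of all mRNAs under the same processing cancels by construction any shift that is equal for all of them, such as spike-in scaling and centring, so only the settings that treat mRNAs unequally move the remainder. By this measure Ptgs2 was 2.78 to 4.51 above that median, Ptgs1 0.49 to 2.35 above, Pla2g4a 0.90 to 1.19 above, Ptges -1.18 to -0.79, Ptges2 -1.74 to -0.86 and Ptges3 -1.21 to -0.75.

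**Figure D4:**
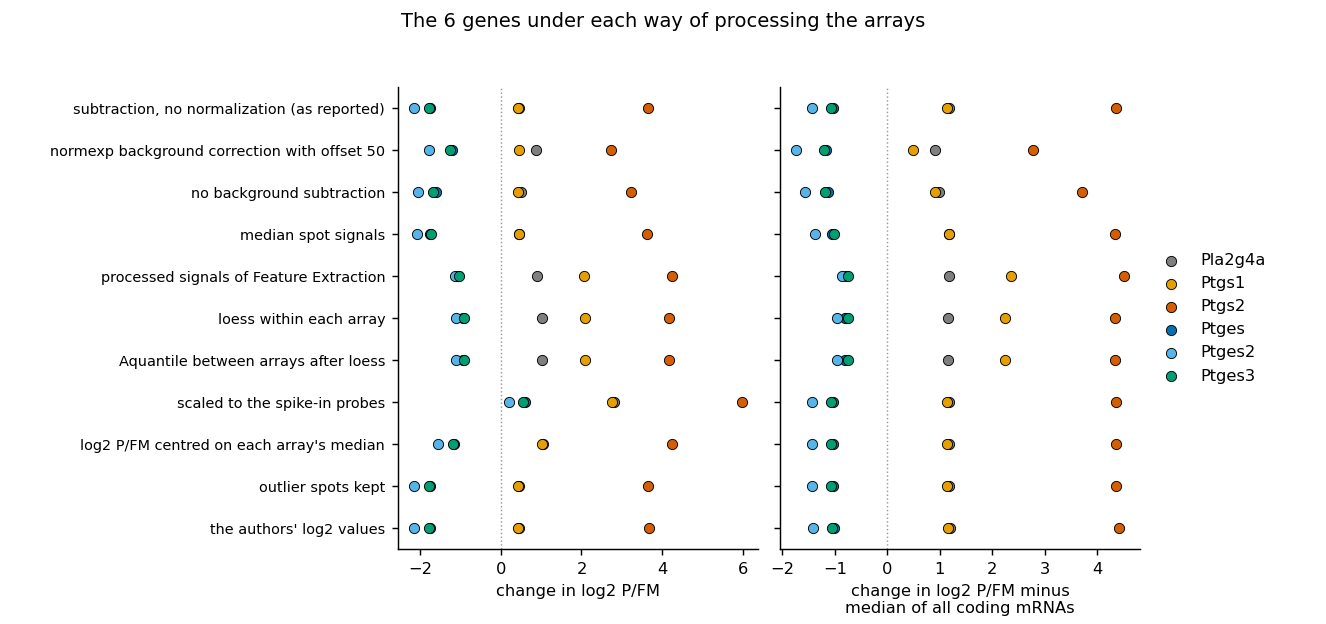
Change in log2 P/FM of the 6 genes (x axis) under each way of processing the arrays (rows), as computed (left) and minus the median of all coding mRNAs under the same processing (right). Spike-in scaling shifts all points to the right in the left panel, with the synthases at 0.19 to 0.59, and in the right panel that shift is cancelled by construction.

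Around these steps, 36 further genes of arachidonate release, other prostanoid synthases, receptors, and transport and breakdown were listed, and 34 had a coding accession. The filter was passed by 17 accessions of 16 genes. Of those 17, 10 (58.8%) were lower by 1 or more in log2 P/FM and none was higher by 1 or more, with a median change of -1.17, against 40.8% lower and 9.9% higher of all mRNAs and 53.7% lower of those with A above 7. Every signal was well above background for 13 of the 17. Of these, 8 were lower by 1 or more, against 44.5% of all mRNAs with every signal well above background. Scaling to the spike-in probes turned the counts over all 17 to none lower and 9 higher by 1 or more. Under that scaling 0.638% of all mRNAs were lower and 70.0% higher by 1 or more. Of the 13 accessions described below, only 1 of Pla2g12a then kept a negative value (-0.28).

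Of the genes that release arachidonate or return it to membranes, 7 accessions passed the filter. Of these, 4 (57.1%) were lower by 1 or more, against 40.8% of all mRNAs and 53.7% of those with A above 7. Pla2g6, a calcium-independent phospholipase, went from 1.11 to -0.38. Pla2g12a, a secreted phospholipase, was lower by 2.02 and 2.63 in its 2 accessions. Lpcat3, which puts arachidonate back into phospholipids, went from 1.76 to -0.06. Acsl4, which activates arachidonate as its CoA ester, had a log2 P/FM of -0.17 in control and 0.52 in thapsigargin, and its change of 0.69 was smaller than the SD of 1.01 over its 2 probes. Mboat7, another acyltransferase for arachidonate, differed by -0.22, which is within the spread between probes. Pla2g4b was not well above background in every channel.

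Of the other terminal synthases, Ptgis, which makes prostacyclin, went from 1.76 to -0.20, and Akr1b3, an aldose reductase that can make prostaglandin F2α, from 2.13 to -0.09. Their changes of -1.95 and -2.22 became -1.29 and -0.33 after loess, and 0.39 and 0.12 after spike-in scaling. Ptgds, Hpgds, Tbxas1 and Prxl2b did not pass the filter, and Cbr1 was not analysed here.

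Among the receptors, Ptger4, a receptor for prostaglandin E2, went from -0.80 to -0.18 in log2 P/FM. Ptgfr, the prostaglandin F2α receptor, went from 0.71 to 0.02. Ptgfrn, a membrane protein that binds the latter receptor, was lower by 1.16, though it was 0.16 higher with normexp background correction. Tbxa2r passed the filter with signals that were not all well above background. The receptor genes Ptger2, Ptger3, Ptgdr, Ptgdr2 and Ptgir did not pass the filter, and Ptger1 was not analysed here.

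For removal of the product, Slco2a1, the prostaglandin uptake transporter, went from -0.05 to 0.41, and Ptgr1, a reductase of prostaglandin breakdown, from 1.84 to -0.04. Hpgd, the dehydrogenase that starts breakdown, did not pass the filter. Abcc4 and Ptgr2 passed it with signals not all well above background.

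**Figure D5:**
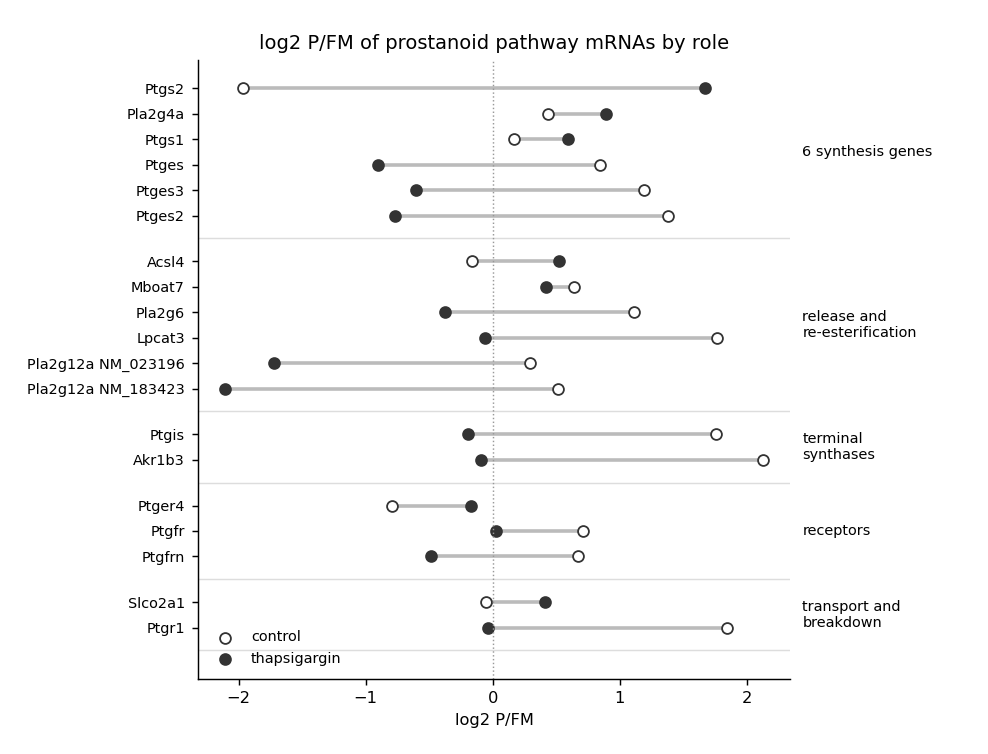
log2 P/FM (x axis) on the control array (open circles) and the thapsigargin array (filled circles) for the 6 synthesis genes and the 13 accessions of other prostanoid genes whose signals were all well above background, grouped by role. Without spike-in scaling, filled circles lie to the left of open ones in 13 of 19 rows, and Ptgs2 has the longest line. Most of all 10033 coding mRNAs were also lower with thapsigargin, and 29.3% were higher.

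The related lists were examined for genes that differed by 1 or more. The lipoxygenase branch uses the same arachidonate, and leukotrienes are among its products. Of 15 genes listed with it, which reach beyond leukotriene synthesis, 4 passed the filter. All 4 were lower by 1 or more, against 40.8% of all mRNAs. Alox5ap, the 5-lipoxygenase activating protein, differed by -1.65 and Lta4h, leukotriene A4 hydrolase, by -1.06, and both were higher after spike-in scaling (0.69 and 1.29), as was Lta4h with normexp (0.42). Ltb4r2 and Ephx2 were not well above background in every channel. Of 3 relatives of Ptges listed from its membrane protein family, Mgst2 differed by -2.23 (0.11 after spike-in scaling) and Mgst3 by -3.60. Mgst1 was lower by less than 1.

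Ptges3 also belongs to the Hsp90 machinery. Of its 8 listed partners, all above the filter, 6 were lower by 1 or more, with a median change of -1.39, against 40.8% of all mRNAs and 53.7% of those with A above 7. The co-chaperones Ahsa1 and Cdc37 differed by -2.70 (-0.94 after loess) and -2.57. The immunophilins Fkbp4 and Fkbp5 differed by -2.54 and -1.35, and Fkbp5 was 0.27 higher with normexp background correction. The chaperones themselves, Hsp90aa1 (-1.11, with A higher by 1.03) and Hsp90ab1 (-1.43), turned to 0.72 and 0.085 after loess.

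Of the factors known to act on the Ptgs2 gene or mRNA, 15 of 16 genes had a coding accession, and all 17 accessions passed the filter. In log2 P/FM 5 (29.4%) were lower and 5 (29.4%) higher by 1 or more, against 40.8% and 9.9% of all mRNAs. Of the 5 higher, 3 had every signal well above background. The transcription factor genes Cebpb (-2.03), Cebpd (-1.64), Rela (-1.68) and Usf1 (-1.96) were lower, and so was Khsrp (-2.12), whose protein binds AU-rich mRNA and promotes decay, though all 5 were higher after spike-in scaling, and after loess Cebpd was at -0.0091 and Rela at -0.95. Jun, a part of AP-1, was higher by 2.23 while its A differed by -1.46. Nfat5 was higher by 3.18 in the accession that was well above background throughout, and Tia1, whose protein silences AU-rich mRNAs, by 1.27. Cebpb also had A higher by 1.05, like Ptges with a lower log2 P/FM, and Nfat5 by 1.13. Fos was not well above background in every channel. Nfkb1 was not analysed here.

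Likeness to a member was measured as the Euclidean distance over log2 P/FM on each array and the change in A, among 5505 accessions that were well above background throughout with A above 7. The nearest to Ptgs2 was Egr2, a zinc finger transcription factor gene, at a distance of 0.46. Egr2 went from -2.07 to 1.74 in log2 P/FM, and its A was higher by 1.72. The next 4 were clearly further off, namely Zfp955a at 1.28, Hk2 at 1.32, Rlf at 1.33 and Fryl at 1.37. For Ptges2 the 5 nearest were Gorasp2, Ctu2, Sra1, Ap2m1 and Furin, at distances from 0.07 to 0.13. The distances are over 3 values from 2 arrays, and no shared control is implied by them.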

How the data were processed

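The 2 arrays hold P RNA in Cy3 and FM RNA in Cy5, 300 ng in total per labelling, with 1 array per condition. By the study's methods, P and FM RNA were labelled in the proportions found in each condition. These were more P than FM RNA in control and more FM than P RNA under stress. The authors extracted the deposited spot and background intensity values with Agilent Feature Extraction (10.7.1 per the submitters' processing notes, 10.7.1.1 per the file headers) without normalization. Other deposited columns give flags of 0 or 1 and processed intensities, which were used as an alternative. The authors' deposited log2 values are ratios of Cy3 to Cy5 after background correction. A deposited log10 ratio made by the scanner software was not used.

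Each spot's mean signal was reduced by its median local background, and values below 0.5 were set to 0.5 (limma 3.58.1 in R 4.3.3), and log2 P/FM and A were taken without normalization, since the study's methods describe no such step. Of 43379 transcript spots, 295 flagged as outliers were left out. On the arrays 42.5% to 46.3% of spots were well above background in a channel. Spots were averaged by probe, then by coding accession, and A above 4.5 on both arrays was required. None of 153 negative control spots reached that A. Current symbols came from RefSeq (GRCm38.p6), in which 98.3% of accessions matched. Probe positions are those of the files (mm9). Motif searches, distances and counts were made in Python 3.11.15.

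The rule for named genes took all 6 members, all genes of the 4 pathway lists above the filter, genes of the other lists that differed by 1 or more, 6 stress genes, and the 5 accessions nearest to Ptgs2 and to the member with the lowest change. Of these, values are given only where every signal was well above background, since others have only a bound. The members, lists and motifs were chosen with earlier results of these data known. The steps were run on simulated spots with little noise and planted changes well above the counting threshold. That checks the calculation and not the error of the arrays. With 1 array per condition no test was made.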

Additional observations from a re-analysis of the deposited data

How the results depend on the processing

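The number of arrays limits every value, since spots and probes measure array error only. No paired analysis was possible because each condition had 1 array. The filter on A was kept at the mRNAs of the reported setting when signals were recomputed. Of 760 values of single genes under the alternatives, 35 turned a change of 1 or more to the other direction, 26 of them under spike-in scaling.

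The change of Ptgs2 in log2 P/FM (3.64) was 2.74 with normexp, 3.22 without background subtraction, 4.23 with processed signals, 4.18 after loess or Aquantile, 5.98 after spike-in scaling and 4.24 after centring. Its change in A (2.16) was 1.05 with normexp, 1.90 without subtraction, 1.85 with processed signals, 1.73 after Aquantile, 2.40 after spike-in scaling and 1.76 after centring of A. Members lower by 1 or more (3) numbered 1 after loess or Aquantile and 0 after spike-in scaling. Members higher (1) numbered 2 with processed signals and 3 after loess, Aquantile, spike-in scaling or centring. With each probe by itself the count was of probes, and the 2 higher were both of Ptgs2. Pathway accessions lower (10 of 17) numbered 6 with normexp or centring and 0 after spike-in scaling. Those higher (0) numbered 3 with processed signals, 2 after loess or Aquantile, 9 after spike-in scaling and 4 after centring. With each probe by itself, 1 probe was higher, against 12.6% of all probes for coding mRNAs. Without the filter on A all 37 accessions were counted. Of these, 20 were lower and 2 higher, against 39.2% and 10.6% of all mRNAs without the filter. Over all mRNAs, the share lower by 1 or more was 40.8%, 20.8% after loess, 22.8% after centring and 0.638% after spike-in scaling, and the share higher was 9.9%, 16.8%, 19.7% and 70.0%. With normexp 20.8% were lower and 8.40% higher, and with processed signals 26.5% and 16.7%.

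Among changes of 1 or more, those in log2 P/FM that turned positive after spike-in scaling were those of Ptges (0.59), Ptges2 (0.19), Ptges3 (0.55), Pla2g6 (0.85), Pla2g12a (0.32 in NM_023196), Lpcat3 (0.51), Ptgis (0.39), Akr1b3 (0.12), Ptgfrn (1.19), Ptgr1 (0.46), Alox5ap (0.69), Lta4h (1.29), Mgst2 (0.11), Hsp90aa1 (1.23), Hsp90ab1 (0.91), Fkbp5 (0.99), Cebpb (0.31), Cebpd (0.71), Rela (0.66), Usf1 (0.39), Khsrp (0.22), Gorasp2 (0.10), Ctu2 (0.22), Sra1 (0.19), Ap2m1 (0.042) and Furin (0.33), since that scaling adds 2.34 to the median change of all mRNAs. With normexp, among changes of 1 or more, those of Ptgfrn (0.16), Lta4h (0.42) and Fkbp5 (0.27) turned positive and the change in A of Nfat5 turned to -0.14. Smaller changes turned too, those of Mboat7, Ptgfr, Herpud1 and Trib3 to 2.12, 1.66, 2.33 and 2.09 after spike-in scaling. Hsp90aa1 was at 0.72 and Hsp90ab1 at 0.085 after loess or Aquantile, and Hsp90aa1 at 0.68 with processed signals. The cause of these differences was not tested.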
